A study of Mus musculus with 4 samples.

Results

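The collagen gene family was followed across 4 tissues of the developing lower jaw and tongue. Its members were all genes that the array design names as a collagen chain, 44 of the 37073 named genes, covered by 91 of the 56601 probes used. Each gene was given 1 value per tissue, from the probe with the highest mean signal, and placed in 1 of 4 structural classes: 11 fibrillar collagens, 9 network collagens, 9 FACIT collagens and 15 others. The tissues came from embryos of ICR mice, with no allele or treatment named in the labels. MMA is the medial part of the mandibular arch at E9.5, pooled from 12 embryos in 1 tube. LLS and LMA, each from 4 embryos at E11.5, are the lateral lingual swellings and the lateral part of the arch. T is the medial tongue of 4 embryos at E14.5. RNA of each tube was labelled with Cy3 and read on 1 single-colour array, so no difference has a replicate check, and precision is limited by that number.

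Collagens are secreted or membrane-bound proteins whose chains wind into triple helices, from 3 copies of 1 chain or from different chains. Fibrillar collagens build the load-bearing fibrils of skin, bone, tendon and cartilage, FACIT collagens sit on the surface of such fibrils, and network collagens form sheets such as the one in basement membranes. The mandibular arch supplies the mesenchyme of the lower jaw, and the lingual swellings on its floor grow into the tongue, whose connective tissue, muscle and stratified epithelium each carry their own collagens.

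Levels are processed signals in arbitrary units of the scanner. Differences are log2 signals of the first tissue minus the second, after the 75th percentile of each array was subtracted, so a difference of 1 is 2-fold. Between 57% and 62.9% of the 59305 non-control spots of an array were well above background, and 0 spots were saturated. Probes printed 10 times gave a single-spot SD of 0.0476 to 0.0581 for a difference, and the error that Feature Extraction attaches to collagen differences measured in both tissues ran from 0.20 to 0.38. Neither covers the spread between pools. Where a probe was not well above background in 1 tissue, the dim value was raised, where it lay lower, to the dimmest signal well above background on that array, and the difference is written as "at least". In pooled tissue, a lower share of collagen-producing cells and less collagen RNA per cell cannot be told apart.

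Collagen signals were mostly highest in the E14.5 tongue and seldom highest in the E9.5 arch. By the brightest probe, the number of collagen genes well above background was 28 in MMA, 34 in LLS and 35 in LMA, then 36 in T. Of the 44 genes, 28 were well above background in all 4 tissues, 9 in some and 7 in none (Col4a3, Col4a4, Col6a4, Col6a5, Col6a6, Col10a1 and Col28a1). By any probe of a gene, Col6a3 was also well above background in MMA and Col5a3 in LMA, and the 7 genes stayed at background. Among the 28 genes measured everywhere, 16 (57.1%) had their highest level in T, 10 in LMA, 1 in LLS (Col23a1) and 1 in MMA (Col18a1). Over all 18539 genes measured everywhere, the shares were 24.6% in T, 18.2% in LMA, 13.7% in LLS and 43.5% in MMA. Of the 28 collagens, 10 were at least 2-fold higher in T than in each other tissue, against 4.6% of all genes, and 1 was so in LMA (Col9a2), against 0.48%. The gaps of Col9a2 in LMA (1.03 on the log2 scale) and Col4a6 in T (1.0) lay at the 2-fold limit. These places rest on the brightest probe, and another probe of Col3a1, Col5a2, Col5a3, Col6a2, Col13a1 or Col25a1 was highest in a different tissue.

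**Figure D1:**
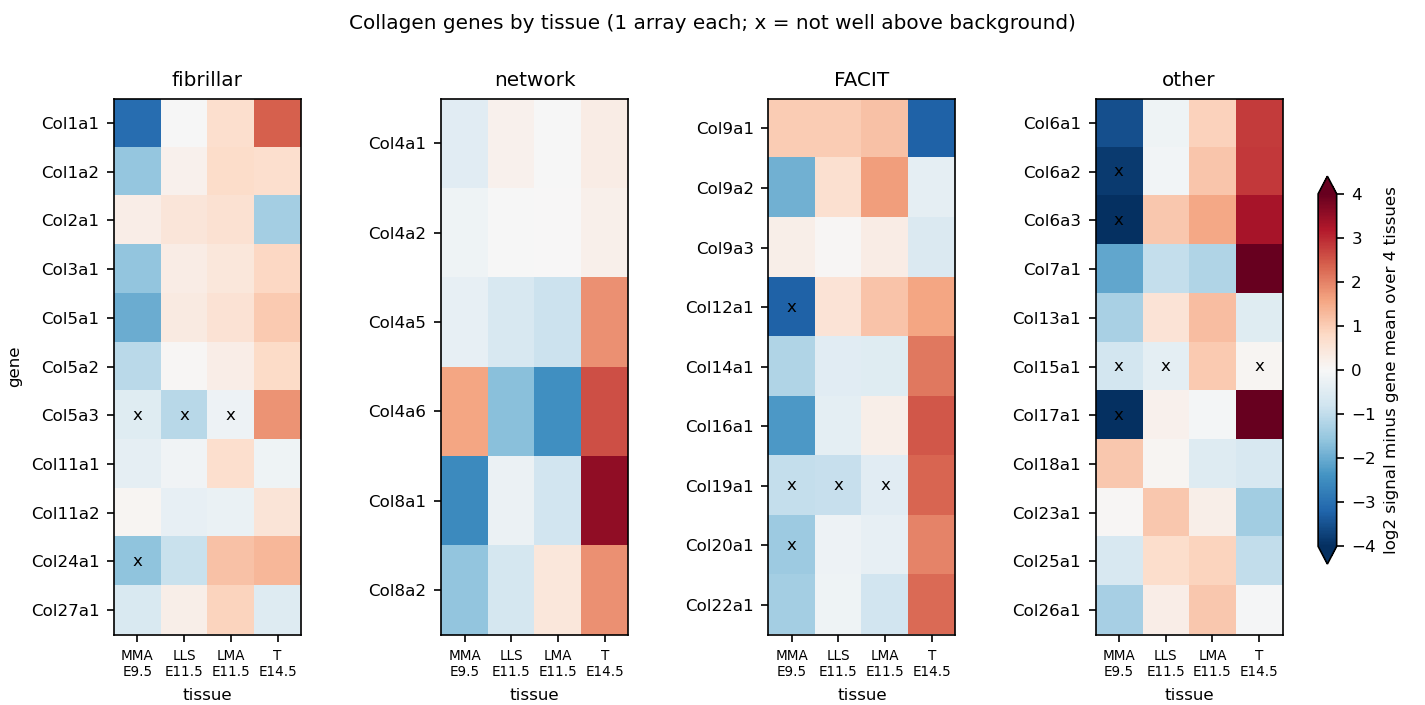
Heat map of the 37 collagen genes that were well above background in at least 1 tissue, by class; colour is the log2 signal of a tissue minus the mean of that gene over the 4 tissues, clipped at 4 and -4, and a cross marks a value not well above background. Rows are compared within a gene only; most rows are darkest red in T, while Col9a1 and Col2a1 are blue there and Col18a1 is highest in MMA.

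LLS was compared with MMA to follow the medial tissue from E9.5 to E11.5, with stage and dissected structure both changed. The collagens were on the whole higher in the swellings. Of the 34 compared, 20 were at least 2-fold higher, 5 of them as bounds, against 8.39% of all genes compared. Col4a6 alone was at least 2-fold lower, where the share over all genes was 5.36%. By their brightest probes, the largest differences among the higher genes were those of 3 type VI chain genes. These were Col6a3 (at least 81.9-fold, 6.36), Col6a2 (at least 11.2-fold) and Col6a1 (10.1-fold). The type I chain gene Col1a1 (8.27-fold) came next. Another Col6a3 probe, measured in both tissues (88.8 in LLS and 58.3 in MMA), differed by 0.50, under 2-fold, and another Col6a2 probe by at least 0.77. The median over the 34 collagens compared was 1.16 and that over all genes -0.07. Among the 28 genes measured on all 4 arrays, 15 were at least 2-fold higher, against 7.26% of such genes, and 1 lower, against 4.71%.

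LLS and LMA, both taken at E11.5, were compared to set the swellings against the lateral arch. Here the collagens differed little, and 24 of the 35 compared were lower in LLS by any size. No collagen was at least 2-fold higher in LLS, against 3.16% of genes, and 5 of the 35 compared were at least 2-fold lower, against 2.55%: Col24a1 (-2.05), Col6a2 (-1.23), Col8a2 (-1.16), Col6a1 (-1.11) and Col9a2 (-1.03, at the 2-fold limit). Col6a2 fell under 2-fold over the median of all its probes (-0.97), and another of its probes gave a bound of -0.49. Col8a2 fell under 2-fold with normexp background correction (-0.86), and Col9a2 with scaling by the array median (-0.93). The Col24a1 value rested on a dim LLS signal (42.4), and its other probe was well above background on no array. The median of 35 collagens was -0.21 and that of all genes 0.01. By the brightest probe, all 10 fibrillar collagens compared were lower in LLS, by 0.04 (Col11a2) to 2.05 (Col24a1). The difference was smaller than its error for Col11a2 (error 0.37), Col2a1 (-0.13, error 0.20) and Col3a1 (-0.15, error 0.20). Another Col3a1 probe gave 0.28, higher in LLS. Among genes measured on all 4 arrays, 3 of 28 collagens were at least 2-fold lower, against 1.58% of genes, and 0 higher, against 2.48%.

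T was compared with LLS to follow the swellings into the tongue, again with stage and structure both changed. In T, 18 of the 36 collagens compared were at least 2-fold higher, 2 of them as bounds, against 11.3% of genes, and 6 at least 2-fold lower, against 5.91%. The higher ones were led by Col7a1 of anchoring fibrils (35.8-fold), Col17a1 of hemidesmosomes (23.4-fold), Col4a6 of basement membranes (18.9-fold) and Col8a1 (13.5-fold). The 6 lower ones were Col9a1 (18.9-fold), Col23a1 (5.56-fold), Col2a1 (3.53-fold), Col25a1 (3.29-fold), Col13a1 (2.03-fold) and Col9a2 (2.0-fold). Col13a1, Col9a2 and, among the higher ones, Col12a1 (2.04-fold) lay at the 2-fold limit. Each fell under it in some of the alternatives tried. The collagen median was 0.93 over 36 genes and 0.52 over the 28 measured everywhere, beside -0.09 and -0.13 for all genes. Of those 28, 10 were at least 2-fold higher, against 6.79% of genes, and 6 lower, against 5.53%.

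The whole span from MMA to T gave the highest collagen median of the 4 comparisons. In T, 24 of the 36 collagens compared were at least 2-fold higher, 8 of them as bounds, against 15.9% of genes, and 4 were at least 2-fold lower, against 13.8%. At least 4-fold, the counts were 19 higher and 1 lower, against 7.59% and 2.03% of genes. By the brightest probes, Col6a3 was at least 381-fold higher, Col17a1 at least 174-fold, Col6a2 at least 6.43 on the log2 scale, Col6a1 79.0-fold, Col7a1 78.4-fold, Col8a1 67.8-fold and Col1a1 44.1-fold. Lower in T were Col9a1 (-4.23), Col18a1 (-1.72), Col2a1 (-1.62) and Col23a1 (-1.44). The median was 2.14 over 36 collagens and 1.42 over the 28 measured everywhere, beside -0.13 and -0.19 for all genes, and 16 of these 28 were at least 2-fold higher, against 11.8% of genes, and 4 lower, against 14.7%. LLS, MMA and T each enter several of these comparisons, so the 4 sets of differences are not independent of each other.

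**Figure D2:**
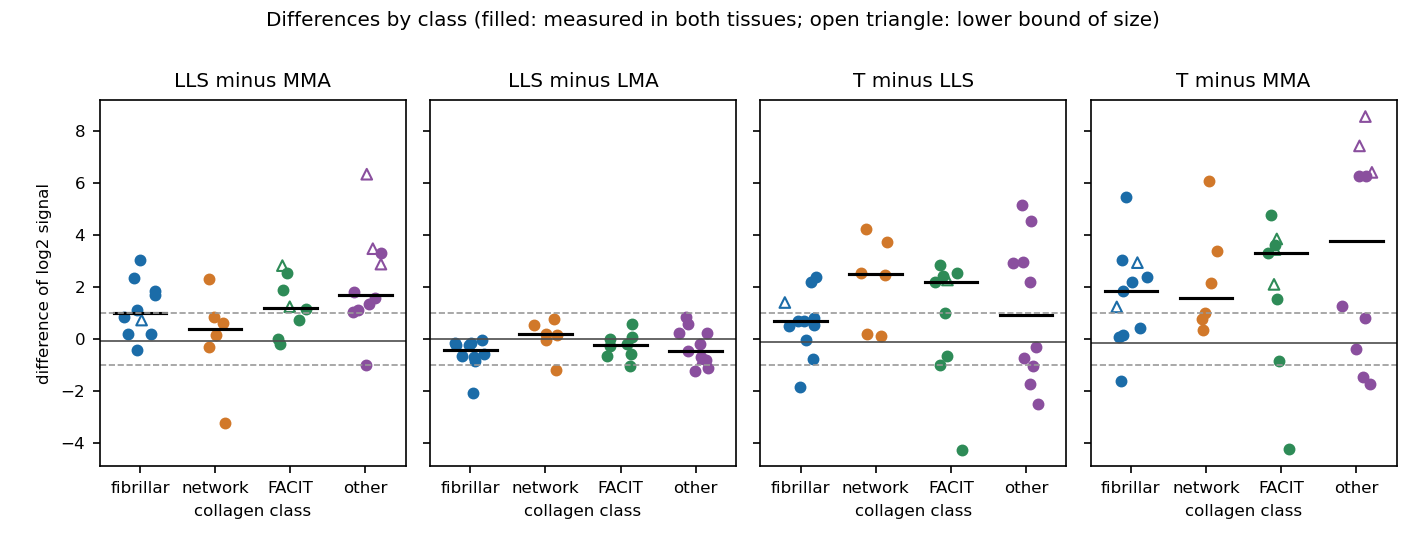
Differences of log2 signal for each collagen gene compared, by class, in 4 comparisons; filled points were measured in both tissues, open triangles are bounds, black bars are class medians, the grey line is the median of all genes and dashed lines mark 2-fold. In T minus LLS the network (2.52) and FACIT (2.20) medians lie above the fibrillar one (0.69). In LLS minus LMA all fibrillar points lie below 0, some by less than their error.

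Among the fibrillar collagens, 5 of 11 were at least 2-fold higher and 0 lower in LLS minus MMA, 0 and 1 in LLS minus LMA, 3 and 1 in T minus LLS and 7 and 1 in T minus MMA. In that order 10, 10, 11 and 11 could be compared. Over all genes compared, 8.39%, 3.16%, 11.3% and 15.9% were higher and 5.36%, 2.55%, 5.91% and 13.8% lower. These shares also stand beside the class, pathway and marker counts below, some of which lie near them. The main chains of types I, III and V were lowest in MMA. Col1a1, the major chain of type I collagen, gave a signal of 319 in MMA, 2848 in LLS and 5034 in LMA, then 16341 in T. Its probe was printed 10 times, with an SD over spots of 0.15, 0.13, 0.10 and 0.08 on the log2 scale, and the gap between any pair of tissues exceeded these SDs. Col1a2, the other type I chain, gave 8251, 29259, 48368 and 44563 in the same order of tissues, so it was highest in LMA and T where Col1a1 kept climbing to T. In T minus LLS, Col1a1 differed by 2.41 and Col1a2 by 0.50, and the Col1a2 value went the other way by its other probes (-0.74 and -0.69). Col3a1, the chain of type III collagen found with type I in extensible tissue, gave 3388, 13460, 16608 and 20983. Col5a1 and Col5a2, whose type V collagen starts type I fibrils and limits their width, gave 731, 4076, 5236 and 7080 and 310, 738, 959 and 1307. Each of the 4 genes other than Col1a1 was at least 2-fold higher in LLS than in MMA and within 2-fold between LLS and T. Their place for T hung on the probe in Col3a1, where 2 others gave 115, 491, 450 and 458 and 167, 588, 687 and 446, and in Col5a2, where another gave 27.9, 35.9, 58.4 and 32.9.

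The fibrillar chains of cartilage followed another order. Col2a1, the type II chain that makes up most cartilage fibrils, gave 1902 in MMA, 2361 in LLS and 2876 in LMA, then 720 in T, so T stood apart at the low end. Col11a1, a chain of the thin type XI core of those fibrils, gave 627, 781, 1550 and 821 and was highest in LMA. Its partner Col11a2 was dim throughout (34.0, 27.9, 31.9 and 53.5). Col27a1, another fibrillar chain of cartilage, gave 102, 198, 343 and 127, with its highest signal in LMA as well. Col24a1 was not well above background in MMA (23.5) and gave 42.4 in LLS against 196 in LMA and 211 in T. Col5a3, a further type V chain, was by its brightest probe well above background in T alone (61.3), where it was at least 2.67-fold higher than in LLS. Another Col5a3 probe was well above background in LMA alone (26.7).

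Network collagens split into a steady pair and members high in T. Of the 9 genes, the higher and lower counts were 1 and 1, 0 and 1, 4 and 0, and 4 and 0 in LLS minus MMA, LLS minus LMA, T minus LLS and T minus MMA. In each comparison 6 of the 9 could be compared. Col4a1 and Col4a2, the chains of the basement membrane collagen of nearly all tissues, gave 2260, 3806, 3748 and 4461 and 1587, 1937, 2178 and 2399, and no pair of tissues differed by 2-fold. Col4a5 and Col4a6, which together form a basement membrane collagen of some epithelia and smooth muscle, behaved differently. Col4a5 gave 287, 250, 240 and 1504, so T stood 4.51-fold above MMA and 5.58-fold above LLS. Col4a6 gave 661 in MMA, 75.7 in LLS and 48.5 in LMA, then 1539 in T, with both E11.5 tissues far below MMA and T. It differed by -3.24 in LLS minus MMA (error 0.22) and by 4.24 in T minus LLS (error 0.22), and its difference of 1.0 in T minus MMA lay at the 2-fold limit. Col8a1 and Col8a2, the short-chain collagens of vessel walls and the cornea, gave 57.4, 311, 239 and 4525 and 96.8, 189, 470 and 1192, both highest in T. Col4a3 and Col4a4, which join Col4a5 in the kidney glomerulus, and Col10a1, the collagen of hypertrophic cartilage, were not well above background on any array.

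The FACIT class held the collagen that was lowest in T against LLS beside several that were high there. Of its 9 members, the counts at least 2-fold higher and lower were 5 and 0 in LLS minus MMA, 0 and 1 in LLS minus LMA, 6 and 2 in T minus LLS and 7 and 1 in T minus MMA. In that order 8, 8, 9 and 9 members could be compared. Col9a1, a chain of the type IX collagen that coats cartilage fibrils, gave 3962 in MMA, 4325 in LLS and 5385 in LMA, then 246 in T, so the 3 arch and swelling samples were alike and T was 18.9-fold below LLS (error 0.21). Its partners followed other courses: Col9a2 gave 221, 1386, 3149 and 745, peaking in LMA, and Col9a3 gave 70.4, 66.9, 88.8 and 46.5, with no 2-fold difference in the 4 comparisons. The remaining members were all highest in T. Col12a1 and Col14a1, both of dense connective tissue around tendon and muscle, gave 11.4 (not well above background), 171, 284 and 376 and 24.4, 44.5, 48.7 and 285. Col16a1 gave 213, 865, 1489 and 6801, which was 27.4-fold from MMA to T. Col22a1, the collagen of the junction between muscle and tendon, gave 194, 477, 354 and 2799, and Col20a1 gave 22.4 (not well above background), 57.6, 59.5 and 286. Col19a1 was well above background in T alone (112).

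Of the 15 other collagens, 10, 11, 10 and 10 could be compared in the same comparisons, with higher and lower counts of 9 and 0, 0 and 2, 5 and 3, and 6 and 2. Among them, type VI collagen forms the beaded microfilaments around muscle fibres and other cells. Col6a1 gave 165 in MMA, 1796 in LLS and 4301 in LMA, then 15112 in T. Col6a2 gave 269 in LLS, 704 in LMA, then 2220 in T, and Col6a3 gave 1964, 3011 and 9844 in the same tissues, and the brightest probes of both were not well above background in MMA (19.3 and 14.3). By these probes the 3 chains had 1 order of tissues, from MMA through LLS and LMA to T, with T minus LLS differences of 2.97, 2.94 and 2.22. Another Col6a2 probe gave 40.8 in LLS, 88.7 in LMA and 69.7 in T, highest in LMA, and differed by 0.67 in T minus LLS. A further Col6a2 probe was highest in T and differed by at least 1.89, and 2 other Col6a3 probes differed by 1.44 and 1.09. The size of the MMA difference hung on the probe: in T minus MMA, Col6a3 differed by at least 8.58 by its brightest probe, by 1.58 by a probe measured in both tissues and by at least 3.58 by another. Likewise Col6a2 differed by at least 6.43 by its brightest probe and by at least 1.43 and 1.72 by 2 others. The related chains Col6a4, Col6a5 and Col6a6 were not well above background on any array.

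The 250 bases before the start of each of these 3 genes are shown because the chains assemble into 1 collagen; all lie on the minus strand of GRCm38.p6 (RefSeq), 5′ to 3′, at chr10:76726045-76726294 for Col6a1, chr10:76623631-76623880 for Col6a2 (1 of 2 listed starts) and chr1:90843972-90844221 for Col6a3. Capitals would mark TATAAA or CCAAT on either strand, and these letters are not in the 3 windows.
Col6a1: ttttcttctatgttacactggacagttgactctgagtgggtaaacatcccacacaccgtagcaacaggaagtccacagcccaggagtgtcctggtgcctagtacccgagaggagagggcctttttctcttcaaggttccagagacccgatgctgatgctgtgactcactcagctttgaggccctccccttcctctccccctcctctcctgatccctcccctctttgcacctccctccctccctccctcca
Col6a2: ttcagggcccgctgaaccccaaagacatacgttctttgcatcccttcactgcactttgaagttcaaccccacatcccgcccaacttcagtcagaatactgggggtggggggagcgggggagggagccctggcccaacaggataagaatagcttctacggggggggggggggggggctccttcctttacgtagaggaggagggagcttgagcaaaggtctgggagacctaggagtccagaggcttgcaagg
Col6a3: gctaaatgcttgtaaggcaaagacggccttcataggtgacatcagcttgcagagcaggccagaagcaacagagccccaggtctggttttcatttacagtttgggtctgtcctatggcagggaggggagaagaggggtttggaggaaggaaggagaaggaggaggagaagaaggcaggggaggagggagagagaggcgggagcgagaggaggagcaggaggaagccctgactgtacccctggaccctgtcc

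Collagens that fasten stratified epithelium to the tissue below were far higher in T. Col7a1, the chain of anchoring fibrils, gave 189 in MMA, 447 in LLS and 419 in LMA, then 17251 in T, a difference of 5.16 in T minus LLS (error 0.20). Col17a1, a membrane-spanning collagen of hemidesmosomes, was not well above background in MMA (5.08) and gave 178 in LLS, 168 in LMA, then 4501 in T, a difference of 4.55 (error 0.21). In both genes the E11.5 tissues lay close together, with LLS minus LMA of 0.25 and 0.24, and T stood far above them. Another Col17a1 probe differed by 3.61 in T minus LLS. Keratin and other epithelial markers differed among themselves, and 10 of 10 were well above background in every tissue. Their summed signal was 59543 in MMA, 41889 in LLS and 13140 in LMA, then 297197 in T. The T sum is mostly Krt5 (85625), Krt14 (86802) and Krt15 (91330), and the MMA sum mostly Krt18 (37581) and Krt8 (13403). In T minus LLS 3 markers were at least 2-fold higher (Krt5 5.34, Krt14 5.36 and Krt15 2.94). In the same comparison 2 were lower (Cldn6 -1.81 and Cldn7 -1.03), and the others stayed within 2-fold. In LLS minus LMA, 7 of the 10 were at least 2-fold higher and 0 lower, and in LLS minus MMA 3 were higher and 2 lower. Their part in the collagen differences was not tested.

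The windows before the starts of this pair are shown because both genes stood far above LLS in T, with TATAAA and CCAAT in capitals (ATTGG where CCAAT is on the other strand), 5′ to 3′ along the gene, from GRCm38.p6 (RefSeq): chr9:108953336-108953585 on the plus strand for Col7a1 and chr19:47692043-47692292 on the minus strand for Col17a1.
Col7a1: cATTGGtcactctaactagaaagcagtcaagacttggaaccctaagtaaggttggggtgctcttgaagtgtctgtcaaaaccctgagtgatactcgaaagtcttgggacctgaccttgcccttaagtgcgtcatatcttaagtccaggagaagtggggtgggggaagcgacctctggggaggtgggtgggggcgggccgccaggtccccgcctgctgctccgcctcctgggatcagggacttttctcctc
Col17a1: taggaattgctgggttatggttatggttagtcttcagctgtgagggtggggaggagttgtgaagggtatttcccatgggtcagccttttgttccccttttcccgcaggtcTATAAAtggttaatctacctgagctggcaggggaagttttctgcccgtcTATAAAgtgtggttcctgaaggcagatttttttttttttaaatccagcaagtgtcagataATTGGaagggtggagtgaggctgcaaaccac

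The Col7a1 window holds 1 CCAAT match, 249 bases before the start, and the Col17a1 window holds 2 TATAAA matches, 140 and 91 bases before it, and 1 CCAAT match at 31 bases. Searched on both strands, TATAAA was found in 5 of the 35 collagen windows listed (14.3%) and in 13% of all 27025 windows, and CCAAT in 12 (34.3%) and in 34.5%. Both shares lay close to those of all genes.

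**Figure D3:**
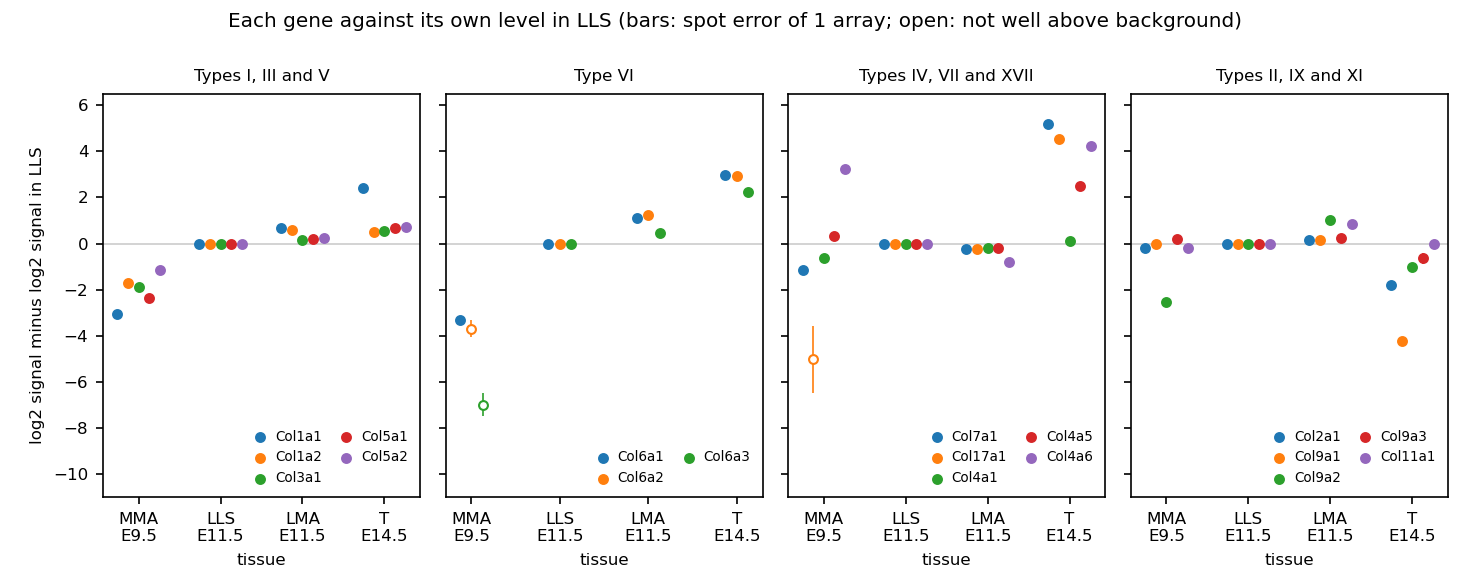
Log2 signal of selected collagen genes in each tissue minus the log2 signal of the same gene in LLS; bars are the spot error of 1 array, mostly smaller than the points, and open points were not well above background. By these brightest probes, types VI, VII and XVII, with Col4a5 and Col4a6, lie above 2 in T, whereas Col2a1 and Col9a1 lie below -1 there.

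The other membrane-spanning collagens had different orders of tissues. Col23a1 gave 365 in MMA, 808 in LLS and 496 in LMA, then 157 in T, and was the 1 collagen highest in LLS. Col25a1, known from the innervation of developing muscle, gave 463, 1268, 1605 and 415, high in both E11.5 tissues. Col13a1, a collagen of the neuromuscular junction, gave 146, 557, 997 and 296 and was 2.03-fold lower in T than in LLS by this probe, but 1.83 higher on the log2 scale by another, which gave 12.7 (not well above background), 45.6, 64.4 and 174. Col18a1, the basement membrane collagen from which endostatin is cut, was the 1 among the 37 detected collagens with its highest signal in MMA, at 13384, 7284, 5318 and 4739. Col26a1 gave 3682, 12114, 23581 and 10488 and peaked in LMA. Col15a1, close kin of Col18a1, was well above background in LMA alone (39.6), and Col28a1 on no array.

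The probes of the leading genes lay, in mm9 as the files give it, on chromosome 11 at 94813075 to 94813134 for Col1a1, chromosome 10 at 76171538 to 76171597 for Col6a1, chromosome 1 at 92663663 to 92663722 for Col6a3, chromosome 9 at 108886855 to 108886914 for Col7a1, chromosome 19 at 47720894 to 47720953 for Col17a1, chromosome 1 at 24259298 to 24259357 for Col9a1 and chromosome X at 137599990 to 137600049 for Col4a6. No annotation of that build was used, so exons and untranslated regions are not named. Of the 44 genes, 30 had more than 1 probe. Col4a6, Col6a1, Col7a1 and Col8a1 had 1 probe each, so the counts that follow do not cover them. Among usable other probes of genes at least 2-fold apart, the direction was the same for 19 of 19 in LLS minus MMA, 2 of 2 in LLS minus LMA, 15 of 16 in T minus LLS and 20 of 20 in T minus MMA, and a 2-fold difference as well was seen for 12, 0, 12 and 13. The exception was Col13a1. These counts include bounds, in T minus MMA for probes of Col6a2, Col6a3, Col12a1, Col16a1 and Col17a1. Raising the dim value leaves the direction of a bound largely fixed by the tissue where the probe was well above background. Agreement of bounds in direction therefore says little. The 2 other usable probes of Col1a1 gave 5.24 and 5.35 in T minus MMA beside 5.46. Those of Col1a2 gave 0.56 and 0.76 beside 2.22, and another probe of Col5a2 gave 0.02 beside 1.86, so the sizes for these genes rest on the brightest probe.

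**Figure D4:**
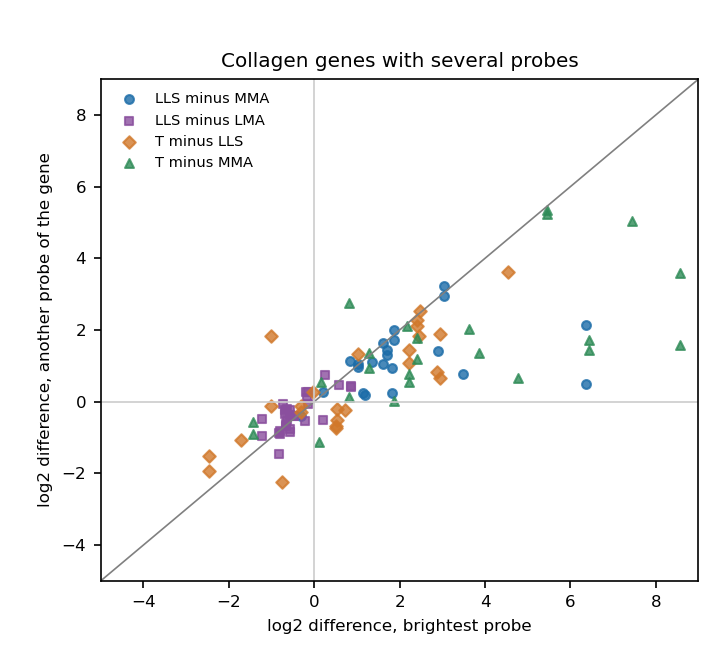
Log2 differences by every other usable probe of a collagen gene against those by its brightest probe, in 4 comparisons, bounds included; the diagonal marks equal values. Points at the right of the diagonal, such as Col6a3 in T minus MMA (8.58 against 1.58 and 3.58), show smaller differences by the other probe, and Col13a1 in T minus LLS lies in the opposite quadrant (-1.02 against 1.83).

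Chains that assemble together did not always differ together. By the brightest probes, the type VI chains lay within 0.75 of each other in T minus LLS, though another Col6a2 probe (0.67) lay below all 3, and Col4a1 and Col4a2 within 0.08. The type I chains lay 3.25 apart in T minus MMA, and the type IX chains 5.77 apart, from -4.23 (Col9a1) to 1.54 (Col9a2). By position, 8 pairs of collagen genes are direct neighbours in the RefSeq annotation. Col4a1 and Col4a2 start 21 bases apart on opposite strands, and their differences were 0.64 and 0.18 in LLS minus MMA and 0.12 and 0.20 in T minus LLS. Col4a6 and Col4a5 start 1343 bases apart on opposite strands and differed by -3.24 and -0.31 in LLS minus MMA and by 4.24 and 2.48 in T minus LLS. Col6a2 and Col6a1 had 2.94 and 2.97 in T minus LLS, and Col3a1 and Col5a2 had 0.53 and 0.72. Col9a1 and its neighbour Col19a1 went opposite ways, with -4.24 and at least 2.28. In the other 3 pairs (Col4a4 with Col4a3, Col6a6 with Col6a5 and Col6a5 with Col6a4) no gene was well above background.

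Most of the enzymes and chaperones that make collagen chains stayed within 2-fold. Of 21 genes for chain modification and folding, the number at least 2-fold higher was 4 in LLS minus MMA, 1 in LLS minus LMA, 2 in T minus LLS and 4 in T minus MMA, with 0 lower in each, and the medians were -0.06, -0.25, 0.18 and 0.23. Over all genes compared the shares higher were 8.39%, 3.16%, 11.3% and 15.9%. Serpinh1, the collagen chaperone HSP47, gave 14167 in MMA, 13756 in LLS and 17186 in LMA, then 19261 in T, and P4hb, a subunit of prolyl 4-hydroxylase, gave 8391, 6371, 8401 and 7419, with no 2-fold difference. Creb3l1, a transcription factor of collagen secretion, gave 59.1, 131, 93.8 and 714, and Fkbp14, a prolyl isomerase, gave 715, 1612, 1744 and 4020, both highest in T. Among 10 genes for the removal of propeptides, 6 at most could be compared, with 4, 1, 2 and 4 higher by at least 2-fold and 0, 0, 1 and 2 lower in the same comparisons, with medians of 1.26, -0.14, 0.02 and 1.60. The proteinase genes Adamts2 (42.4, 284, 214 and 1212) and Adamts14 (167, 369, 380 and 3006) were highest in T, and Pcolce2, an enhancer of C-propeptide removal, was lowest there (264, 153, 234 and 49.6).

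Crosslinking enzymes and receptors of collagen had members that differed as well. Lox, the lysyl oxidase that crosslinks fibrils, gave 24.2 in MMA, 179 in LLS and 77.6 in LMA, then 2330 in T, and its relative Loxl1 gave 83.4, 701, 1407 and 1728. Of 5 lysyl oxidase genes 4 could be compared, with 3, 1, 2 and 3 at least 2-fold higher, 0 lower and medians of 2.33, -0.53, 0.88 and 2.97 in LLS minus MMA, LLS minus LMA, T minus LLS and T minus MMA. Of 10 receptor genes 8 could be compared, with 3, 0, 2 and 3 higher, 0, 1, 1 and 0 lower and medians of 0.65, -0.28, 0.32 and 0.55. Itga11, an integrin chain for fibrillar collagen, gave 59.8, 389, 1208 and 482 and peaked in LMA. The discoidin domain receptors parted in T: Ddr1, mostly of epithelia, gave 281, 816, 668 and 2095, and Ddr2, mostly of mesenchyme, gave 629, 1649, 2184 and 585.

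Markers of several cell types also differed between the tissues, and their part in the collagen differences was not tested. Skeletal muscle markers were well above background for 4 of 10 in MMA, 8 in LLS and 8 in LMA, then 10 in T, with a summed signal of 534, 4172, 15134 and 385426; 10 of 10 were at least 2-fold higher in T than in LLS and in MMA, 7 of 8 higher in LLS than in MMA and 7 of 8 lower in LLS than in LMA. Myf5 and Ckm were well above background in T alone. Arch mesenchyme markers went the other way in T, where 10 of 10 were at least 2-fold lower than in LLS. Their summed signals were 44480, 21954, 56069 and 4253. Against MMA 8 were lower in T and 1 higher, 4 were lower and 2 higher in LLS, and 6 were lower and 1 higher in LLS than in LMA. Tendon markers summed to 472, 3804, 11726 and 18687; the T sum is mostly Thbs4 (14848), while Scx gave 340, 2997, 11032 and 3003 and was highest in LMA. Of the 6, the higher and lower counts were 2 and 0 in LLS minus MMA, 0 and 1 in LLS minus LMA, 2 and 0 in T minus LLS and 3 and 0 in T minus MMA.

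Few cartilage and bone markers were well above background. Of 8 cartilage markers, 3 were well above background in MMA, 4 in LLS and 2 in LMA, then 3 in T, with summed signals of 2073, 396, 339 and 355. The MMA sum is mostly Hapln1 (1349, 52.9, 99.3 and 16.7, the last not well above background) and Sox9 (639, 204, 154 and 202), both highest in MMA. Acan, the aggrecan gene, gave 72.8 in LLS and 30.4 in T and was not well above background in MMA or LMA. Matn1 and Snorc were well above background in no tissue. Higher and lower counts for cartilage were 1 and 3, 1 and 0, 1 and 2, and 0 and 2 in LLS minus MMA, LLS minus LMA, T minus LLS and T minus MMA. Bone markers, well above background for 2 to 4 of 7, summed to 600, 502, 568 and 901. Their higher and lower counts were 0 and 1, 0 and 0, 2 and 0, and 2 and 1. Ibsp (336) and Spp1 (167) were well above background in T alone. Sp7 (255, 331, 372 and 279) and Alpl (301, 108, 111 and 75.9) were so in every tissue. Dmp1 was at background throughout.

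Blood, vessel and nerve markers also differed between the tissues. Of 7 erythroid markers, 0 were at least 2-fold higher in any comparison and 2, 0, 6 and 7 were lower in the order above, with summed signals of 472145, 415019, 421837 and 46204. Of 9 endothelial markers 0 were higher and 3, 5, 0 and 5 lower, with summed signals of 8135, 5076, 11274 and 4308. Macrophage markers were higher for 7, 0, 6 and 8 of 9 and lower for 0, with sums of 768, 2236, 3245 and 5058. Schwann cell markers, 6 in all, were higher for 3, 0, 4 and 5 and lower for 0, with sums of 1090, 1862, 2035 and 5806. The extraction text in the labels names cerebellum, a tissue that does not match the dissections. Of 9 cerebellar markers, Gabra6, Atoh1, Neurod1, Zic2 and Calb1 were at background on all 4 arrays. The other 4 were not: Pcp2 gave 46.7, 584, 1560 and 43.2 and Cbln1 794, 110, 69.3 and 39.2, Zic1 was well above background on all 4 arrays and En2 in MMA and LMA. The list summed to 953, 798, 1746 and 211, with 1, 0, 0 and 0 higher and 1, 1, 2 and 1 lower.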

How the data were processed

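The authors deposited 1 scanner file of intensity values per tissue, written by Agilent Feature Extraction, version 10.7.1.1 per the file headers and 9.5.1.1 per the submitters' processing notes, on positions in mm9. A second deposited table gives linear intensity for the same arrays. Column medians are 50.5 (MMA), 51.1 (LLS), 51.3 (LMA) and 51.9 (T). Each column ranks probes as its own scanner file does (Spearman 1), and how it was centred is not given in the sources used here.

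Control and flagged spots were left out, as were 4 of 56605 probes whose spots were all flagged on some array, and repeated spots of a probe were averaged. Log2 of the processed signal minus the 75th percentile of the array gave the level. A probe was well above background where at least 50% of its unflagged spots were. A gene was compared where its brightest probe was so in 1 or both tissues, and counted at a difference of at least 2-fold. With 1 array per tissue no test was run, and no p-value is given. The symbols of 42 brightest collagen probes were checked through their accessions in the RefSeq table, and 42 matched. All 137 entries of the 15 pathway and marker lists were found. The collagen genes, their classes and the lists were chosen with earlier results of these data known. Any collagen gene or list member could be named. The counting step was tested on simulated data. Work was done in Python 3.11.15 (numpy 2.4.6, pandas 2.3.3) and R 4.3.3 (limma 3.58.1). The 8 alternatives tried are in the closing section.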

Additional observations from a re-analysis of the deposited data

How the results depend on the processing

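The 4 comparisons were recomputed under 8 alternatives (scaling by the array median, quantile normalization, cyclic loess, normexp background, no filter and no floor, genes well above background in all 4 tissues, the median over all probes of a gene, and the deposited value table). No count, collagen median or gene difference called at 2-fold changed direction. The collagen medians for LLS minus MMA, T minus LLS and T minus MMA were 1.08, 0.74 and 1.87 with the array median (LLS minus LMA -0.11), 0.94, 0.69 and 1.53 with normexp, 0.85, 0.70 and 1.5 without filter and floor, 1.08, 0.52 and 1.42 over genes measured in all 4 tissues, 1.01, 1.0 and 1.63 over all probes, and 1.25, 1.03 and 2.39 with cyclic loess. For LLS minus MMA and T minus MMA they were 1.11 and 2.03 with quantile normalization and 1.11 and 2.03 with the value table. For LLS minus LMA and T minus LLS they were -0.246 and 0.926 with quantile normalization and -0.245 and 0.924 with the value table. These 2 settings gave nearly the same medians, so they add little to each other as checks. Counts moved by over 1.5 times in 4 cases. The collagens at least 2-fold lower in LLS minus MMA became 2 with the array median and 2 without filter and floor. Over genes measured in all 4 tissues, which leaves out genes dim in 1 tissue, those lower in LLS minus LMA became 3 and those higher in T minus LLS became 10. The cause of the other shifts was not tested.

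Scaling moved the median of all genes too: with the array median it was -0.41 in T minus MMA and -0.28 in T minus LLS, and with cyclic loess 0.13 and 0.06. Relative to all genes the collagen median stayed between 1.01 and 1.24 (LLS minus MMA), -0.29 and -0.20 (LLS minus LMA), 0.63 and 1.09 (T minus LLS) and 1.47 and 2.28 (T minus MMA). The 1.09 came from the setting over all probes. There only the collagens were taken over all probes, and the median of all genes was still that of the brightest probes. Of the 78 single-gene differences called at 2-fold, 13 fell under it with normexp, 8 over all probes, 5 with the array median, 3 with the value table, 2 with quantile normalization and 2 with cyclic loess. Over all probes Col1a2 and Col5a2 in T minus MMA came to 0.76 and 0.94 and Col13a1 in LLS minus MMA to 0.93, and with normexp Col19a1 in T minus MMA came to 0.93 and Col20a1 in LLS minus MMA to 0.42. No paired analysis was possible because each tissue has 1 array. Signals near background, as for Col11a2, limit what can be ordered among dim genes.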
